A study of Mus musculus with 24 samples.

Results

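The 32 genes described here code for enzymes that bring pyruvate into the mitochondrion's tricarboxylic acid (TCA) cycle, run the cycle and move malate and aspartate across the inner mitochondrial membrane. They were chosen by name. All 32 were found among the 23998 genes of the polyA RNA table, and all 32 had a mean of at least 1 FPKM (fragments scaled by the length of the transcript and by the mapped fragments), the minimum for the 12980 genes that were tested.

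The pyruvate dehydrogenase complex turns pyruvate into acetyl-CoA, is switched off by 4 kinases (Pdk1 to Pdk4) and is switched on again by the phosphatases Pdp1 and Pdp2. Acetyl-CoA enters the cycle at citrate synthase and the cycle hands electrons to the respiratory chain, which makes most of the ATP of a beating heart. The malate-aspartate shuttle carries the electrons of cytosolic NADH inward through paired cytosolic and mitochondrial enzymes, and malic enzymes and pyruvate carboxylase move carbon between pyruvate and the cycle's acids.

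The libraries came from hearts of 13 mice on a CD1 background, 1 polyA library per animal, taken at 4 months of age. Per the sources used here, every animal carried human MYL2, the gene of the regulatory light chain of ventricular myosin, as a transgene. The allele was either normal (wtTg, called wild type here) or mutated (mutTg, called mutant). The promoter that drives the transgene is not named in the sources used here, and the genotype field reads RLC-47K L6 for every sample, so the names of the samples give the genotype here. Wild-type mice with control virus (3 libraries), mutants without virus (3), mutants with control virus (3) and mutants with shRNA virus (4) were compared. The virus was an AAV9 given through the jugular vein at 3 days of age: the shRNA virus carried H1-M7.8L and RSVp-Cerulean, and the control virus lacked the M7.8L shRNA. The comparisons ask how the mutant heart differs from the wild-type heart, whether the virus alone changes it, and how hearts given the shRNA differ from both.

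Libraries differed in overall scale, with FPKM totals of 580948 to 1701499, and the depth in reads is unknown. Each comparison is therefore given on the values as deposited and after alignment, in which a library's median difference from the mean of all libraries on the log2(FPKM + 1) scale was removed. These shifts ran from -0.45 in the mutant without virus numbered 10 to 0.71 in the library labelled shRNA replicate 8. The row for human MYL2 was listed at 0 in 10 libraries: all 3 wild type, all 6 mutants without shRNA and labelled shRNA 8. It was at 229, 420 and 317 FPKM in the libraries labelled shRNA 5, 6 and 7, and the row for the shRNA was at 0 in all 13. These rows go against the labels, so the group is called "labelled shRNA" throughout. The names wild type and mutant likewise rest on the sample names and are not borne out by the MYL2 row. By the Y-linked gene Ddx3y (above 5 FPKM taken as male), wild type 2 and 3, mutants without virus 9 and 10 and labelled shRNA 5 to 7 were male, and the other 6 libraries, all 3 control-virus mutants among them, were female. Xist, which marks females, was at 37.5 to 124 FPKM in the female libraries. It was at 8.31 in wild type 3 and at 0.176 to 0.965 in the other males, so the sex signal of wild type 3 was mixed. The row Rn45s was listed at 0 in wild type 2, mutant without virus 11, the 3 control-virus mutants and labelled shRNA 8. Sex and this row therefore move with the groups.

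To show the DNA next to which these genes start, the 250 bases before the RefSeq start site are printed for 5 of them on the strand of the gene (build GRCm38.p6). Idh2 (chr7:80115351-80115600, minus strand) and Pdp2 (chr8:104591222-104591471, plus strand) had the largest differences below wild type, Got1 (chr19:43524606-43524855, minus strand) is a shuttle enzyme, and the kinases Pdk3 (chrX:93832151-93832400, minus strand) and Pdk4 (chr6:5496279-5496528, minus strand) did not follow the other members. Capitals mark matches to 1 of the 3 motifs described after the sequences.
Idh2: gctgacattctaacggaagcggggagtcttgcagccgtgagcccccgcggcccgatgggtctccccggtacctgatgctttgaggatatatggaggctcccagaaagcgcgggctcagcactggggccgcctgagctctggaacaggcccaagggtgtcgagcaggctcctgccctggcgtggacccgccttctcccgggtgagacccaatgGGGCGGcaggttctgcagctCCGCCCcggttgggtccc
Pdp2: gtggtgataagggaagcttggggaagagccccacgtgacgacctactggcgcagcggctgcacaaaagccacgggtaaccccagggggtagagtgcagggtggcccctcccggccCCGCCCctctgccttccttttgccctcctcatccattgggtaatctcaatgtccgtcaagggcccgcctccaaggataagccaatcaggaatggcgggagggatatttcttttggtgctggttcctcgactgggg
Got1: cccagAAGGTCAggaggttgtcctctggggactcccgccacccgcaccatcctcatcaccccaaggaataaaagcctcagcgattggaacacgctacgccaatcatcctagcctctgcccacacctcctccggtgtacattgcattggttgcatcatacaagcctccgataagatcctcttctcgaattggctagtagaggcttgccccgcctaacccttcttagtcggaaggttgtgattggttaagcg
Pdk3: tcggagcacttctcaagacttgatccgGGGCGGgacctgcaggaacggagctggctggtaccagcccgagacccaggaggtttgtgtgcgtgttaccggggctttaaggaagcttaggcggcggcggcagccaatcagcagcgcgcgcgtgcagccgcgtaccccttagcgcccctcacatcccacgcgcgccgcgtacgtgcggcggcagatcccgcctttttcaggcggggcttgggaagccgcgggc
Pdk4: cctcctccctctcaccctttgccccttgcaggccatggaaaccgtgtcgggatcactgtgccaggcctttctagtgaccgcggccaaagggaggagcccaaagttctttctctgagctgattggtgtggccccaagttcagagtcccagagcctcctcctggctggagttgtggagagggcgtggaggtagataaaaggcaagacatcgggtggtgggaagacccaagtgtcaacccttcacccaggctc

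RefSeq promoter entries were matched for 29 of the 32 members, and not for Idh3a, Pdp1 and Me2. The letters GGGCGG, the GC box bound by Sp1, stood on either strand of the window in 19 of the 29 (65.5%), against 35.4% of the 27025 genes with an entry. Those include genes below the expression minimum, and the share among the tested genes alone was not taken. AAGGTCA, the core of the element bound by estrogen-related receptors, stood in Got1 alone (1 of 29, 4.7% of all genes). CCGGAAG, a motif of ETS factors such as GABPA, stood in Idh3g alone (1 of 29, 7.83% of all genes). The window of Idh2 held the GC box on both strands, those of Pdp2 and Pdk3 held it once, and that of Pdk4 held none of the 3 motifs. The GC content of the printed windows was 67.2% for Idh2, 60.8% for Pdp2, 54.4% for Got1, 67.6% for Pdk3 and 58.8% for Pdk4. A match is a description of these letters and was not set against the expression values.

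In wild-type hearts the 32 genes together made up 2.15%, 1.99% and 2.07% of the library's FPKM total. Idh2, the mitochondrial NADP-dependent isocitrate dehydrogenase, stood highest at 2711 ± 508 FPKM (SD, n = 3), followed by the cytosolic and mitochondrial malate dehydrogenases Mdh1 (2298 ± 219) and Mdh2 (2247 ± 82.0). The spreads of these neighbours overlap. Pdha1, the catalytic alpha subunit of pyruvate dehydrogenase, came next at 1323 ± 101 FPKM, and then citrate synthase (Cs) at 1066 ± 78.2. At the low end were the phosphatases Pdp1 (25.0 ± 1.15) and Pdp2 (19.6 ± 2.45), the malic enzyme Me2 (14.1 ± 3.56) and the kinase Pdk3 (1.67 ± 0.236). Among the kinases the order was Pdk2 (401 ± 13.9), Pdk4 (337 ± 19.6), Pdk1 (149 ± 8.98) and Pdk3, with gaps larger than the SDs.

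In mutant hearts most of the 32 genes were lower. Their share of the FPKM total was 1.35%, 1.29% and 1.25% in the mutants without virus and 1.17%, 1.31% and 1.42% in the control-virus mutants, below all 3 wild-type libraries in each of the 6. In control-virus mutants against wild type, 21 of the 32 genes fell and 1, Pdk3, rose (limma, Benjamini-Hochberg adjusted p under 0.05), while 7.35% of all tested genes fell and 2.15% rose. After alignment 24 fell and 1 rose, against 12% and 11.2% of all genes. The median log2 difference was -0.98 over the 32 genes and -0.14 over all tested genes, and -0.85 and -0.02 after alignment. In mutants without virus against the same wild-type libraries, 27 of the 32 fell and 0 rose as deposited (19.2% and 1.54% of all genes), and 27 fell and 1 rose after alignment (15.5% and 10.1%). The median was -1.25 over the 32 genes and -0.33 over all genes, and -0.93 and -0.01 after alignment. Virus also differed in this comparison, as the wild-type mice had the control virus and the mutants without virus had none. As deposited, 28 of the 32 genes were lower in each of the 6 mutants than in every wild-type library, all but Pdk3, Pdk4, Me1 and Me2, as were 24% of all tested genes. After alignment it was 27, with Pdp1 added to the exceptions, and 22% of all genes. As single comparisons on deposited values, 28 members did not overlap and were lower in control-virus mutants (28.5% of all genes) and 28 in mutants without virus (40.6%). Pdk3 did not overlap and was higher in both, as were 13.6% and 8.31% of all genes.

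**Figure D1:**
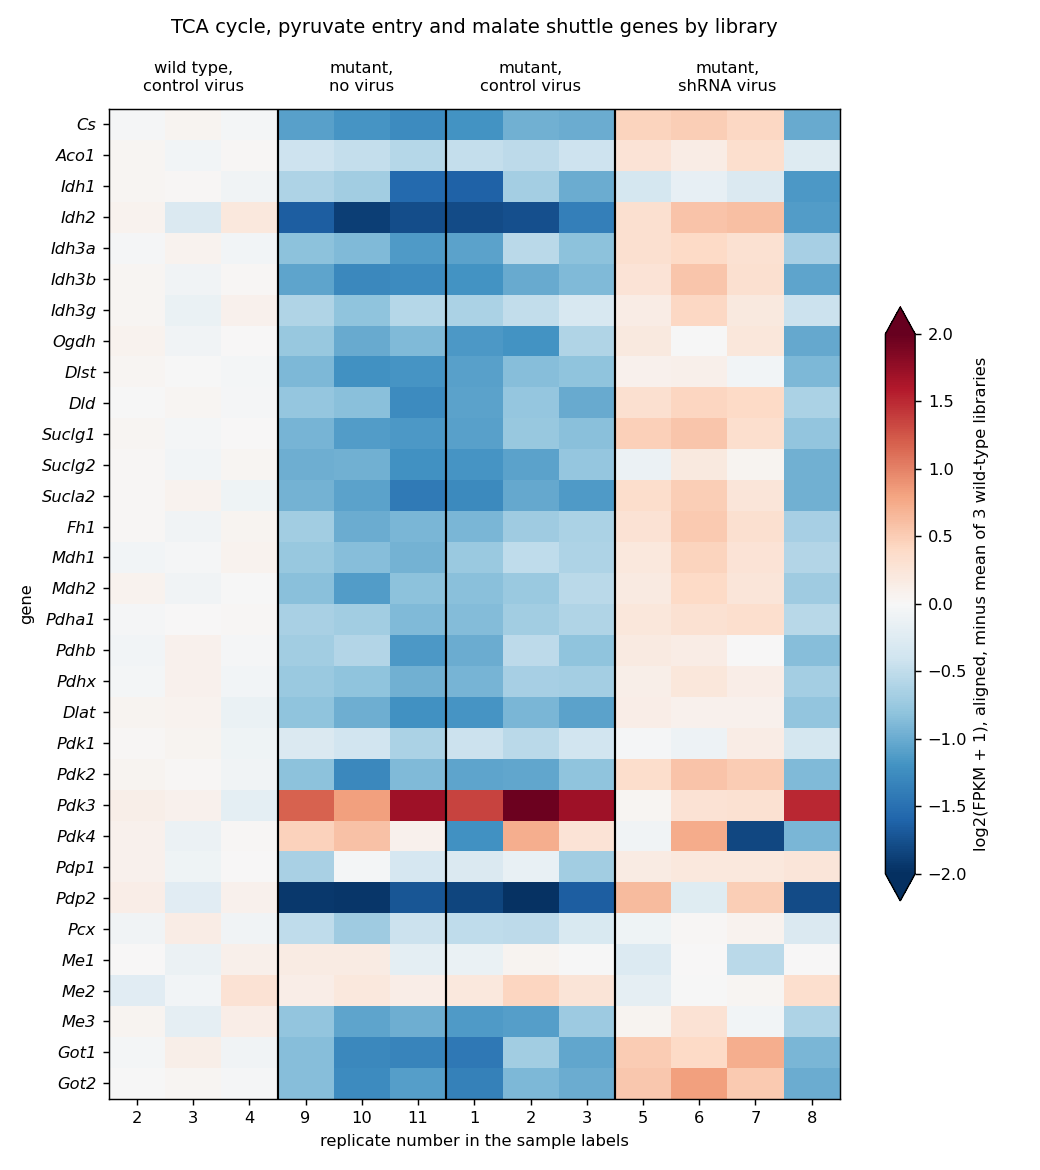
Each row is 1 of the 32 genes and each column 1 of the 13 libraries, labelled by replicate number and grouped as written above the columns; color gives aligned log2(FPKM + 1) minus the mean of the 3 wild-type libraries. Most rows are blue in the 6 mutants without shRNA and in labelled shRNA replicate 8, and pale to red in labelled shRNA replicates 5 to 7, whereas Pdk3 is red in the mutants.

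Markers of heart cell types moved in the same comparison. Of 12 cardiomyocyte markers 6 fell in control-virus mutants as deposited and 4 after alignment, and 0 rose, and the sum of the 12 was 91050 to 115226 FPKM in wild type, 45021 to 65912 in mutants without virus and 51828 to 74247 in control-virus mutants. Myh6, the adult alpha myosin heavy chain, was listed at 0 in 1 library of each of these 3 groups and at 3078 to 12709 FPKM in the rest. Of 10 fibroblast markers 6 rose as deposited and 8 after alignment, with sums of 983 to 1412 in wild type and 2531 to 4019 in control-virus mutants. Of 11 macrophage markers 4 rose as deposited and 9 after alignment, with sums of 548 to 613 and 1309 to 2498, and no marker of these lists fell. As deposited, of 8 endothelial markers 2 fell and 0 rose, and of 6 smooth muscle and pericyte markers 2 fell and 1 rose. On both scales 0 of the tested adipocyte (2), liver (3), red cell (5) and mesothelial (4) markers passed in limma. Nppa, the natriuretic peptide of the atria that stressed ventricles also make, was at 1316 to 3492 FPKM in wild type and 17073 to 46679 in the 6 mutants without shRNA. The other 3 atrial markers, Myl7, Sln and Myl4, were at 19.0 FPKM or less in every library, and of the 4 markers 2 rose with control virus as deposited and 3 after alignment. Fewer cardiomyocytes and less RNA per cardiomyocyte cannot be told apart in whole-heart RNA, and the part of these markers in the results was not tested.

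All 5 subunit genes of the pyruvate dehydrogenase complex fell in the mutants. Pdha1 was at 1208, 1361 and 1400 FPKM in wild type, 796, 592 and 538 in mutants without virus and 639, 870 and 703 in control-virus mutants. Every mutant value lay below every wild-type value, and the control-virus difference was -0.85 ± 0.26 (log2, SE, limma adjusted p = 0.0445). Pdhb, the beta subunit of the same enzyme, fell by 0.90 ± 0.28 (adjusted p = 0.0493). Dlat, the acetyltransferase core, was at 320, 357 and 314 FPKM in wild type and 128, 186 and 126 in control-virus mutants, a fall of 1.18 ± 0.26 (adjusted p = 0.0117). The core's binding protein Pdhx fell by 0.88 ± 0.25, and Dld, the dehydrogenase it shares with the 2-oxoglutarate complex, by 1.08 ± 0.28. All 5 subunits also fell in mutants without virus, by 1.06 (Pdha1) to 1.32 (Dlat), and on both scales.

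The genes that set the complex's activity did not move together. Pdp2, the phosphatase that activates the complex, had the largest fall of the 32. Its values were 20.0, 16.9 and 21.8 FPKM in wild type, 4.06, 2.89 and 3.69 in mutants without virus and 4.07, 4.57 and 4.29 in control-virus mutants. The control-virus difference was -1.95 ± 0.35 (3.86-fold on the FPKM + 1 scale, limma adjusted p = 0.0057) and -1.82 ± 0.46 after alignment (adjusted p = 0.0206). The other phosphatase, Pdp1, was at 24.1 to 26.3 FPKM in wild type and 12 to 24.0 in control-virus mutants, and its difference of -0.51 ± 0.27 did not pass (adjusted p = 0.243). Both phosphatases stood at similar levels in wild type, and the difference between their changes was not tested.

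Of the 4 inhibitory kinases, Pdk2 fell, Pdk3 rose, and Pdk4 varied between animals. Pdk2 was at 390, 417 and 397 FPKM in wild type, 214, 119 and 164 in mutants without virus and 171, 209 and 187 in control-virus mutants (difference -1.09 ± 0.29, adjusted p = 0.0277). Pdk3 was at 1.70, 1.89 and 1.42 FPKM in wild type, 4.71, 2.43 and 5.47 in mutants without virus and 5.01, 10.0 and 5.96 in control-virus mutants. It was higher in all 6 mutants than in any wild-type library, and rose by 1.54 ± 0.43 with control virus (adjusted p = 0.0335). In mutants without virus its difference of 0.92 ± 0.43 did not pass as deposited (adjusted p = 0.141), but 1.23 ± 0.34 after alignment did (0.0236). Pdk1 was lower in all 6 mutants (71.9 to 115 FPKM against 141 to 158). Its control-virus difference of -0.58 ± 0.23 did not pass as deposited (adjusted p = 0.12) and passed after alignment (-0.45 ± 0.13, 0.0307). Pdk4, the kinase induced by fasting and fatty acids, was at 333, 320 and 358 FPKM in wild type, 438, 370 and 267 in mutants without virus and 129, 594 and 331 in control-virus mutants. These groups overlap, and the control-virus difference of -0.20 ± 0.53 was smaller than its error.

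Because Pdk2 fell and Pdk4 did not, the make-up of the summed kinase RNA differed between libraries. Pdk2 was 44.0% to 46.5% of the 4 kinases' summed FPKM in wild type and 20.8% to 32.2% in mutants without virus. In control-virus mutants it was 42.5%, 22.7% and 30.3%. Pdk4 was 35.6% to 39.6% in wild type, 52.6% to 64.4% in mutants without virus and 32.1%, 64.5% and 53.7% in control-virus mutants. The Pdk2 and Pdk4 shares of control-virus mutant 1 lay nearer to wild type than those of the other 5 mutants, which had less Pdk2 and more Pdk4, while its Pdk1 share was 24.1% against 16.3% to 17.7% in wild type. Pdk3 was 0.157% to 0.210% in wild type and 0.424% to 1.25% in the 6 mutants, so the only kinase that rose remained a small part of the total. These ratios within a library do not depend on its scale.

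**Figure D2:**
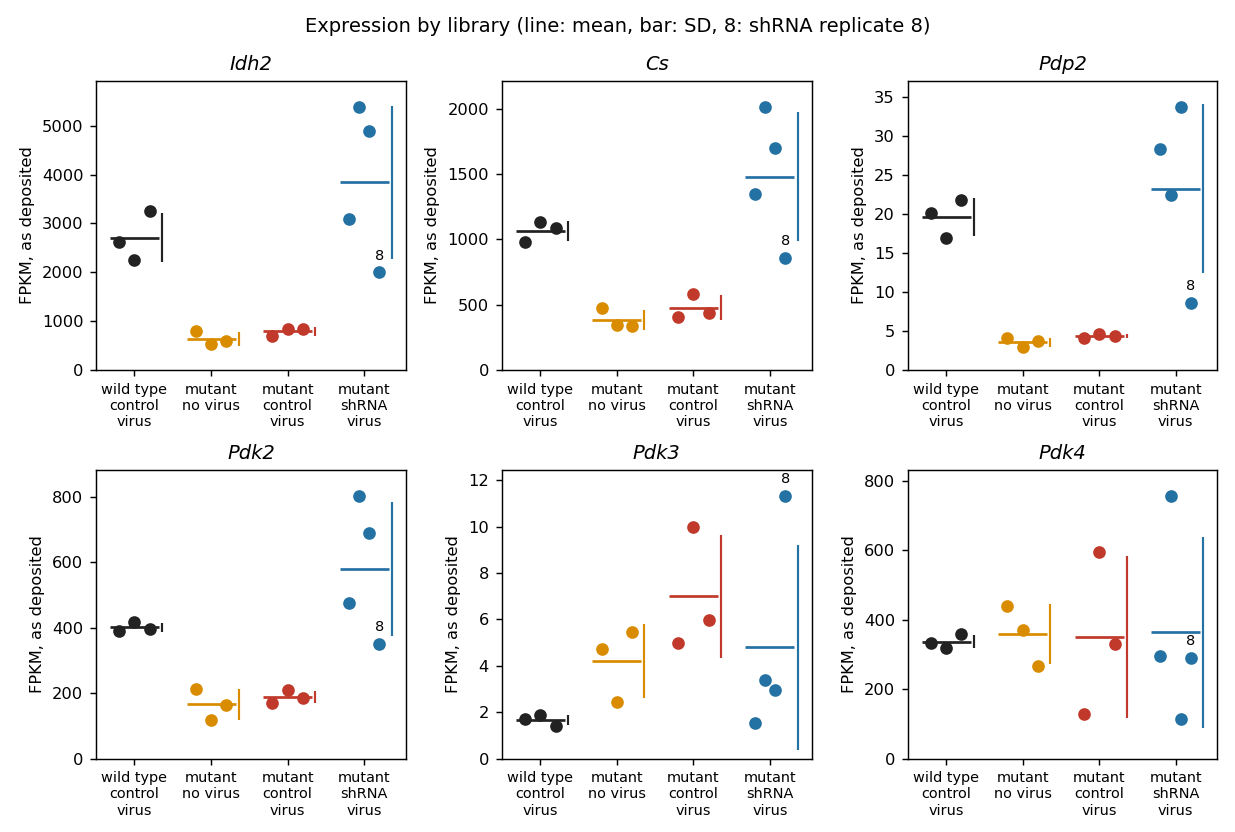
Dots are single libraries in FPKM as deposited for 6 genes, with the group mean as a line and the SD as a bar (n = 3, or 4 for the group labelled shRNA), and the digit 8 marks labelled shRNA replicate 8. Idh2, Cs, Pdp2 and Pdk2 are lower in both mutant groups without shRNA than in wild type, Pdk3 is higher, and Pdk4 overlaps.

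**Figure D3:**
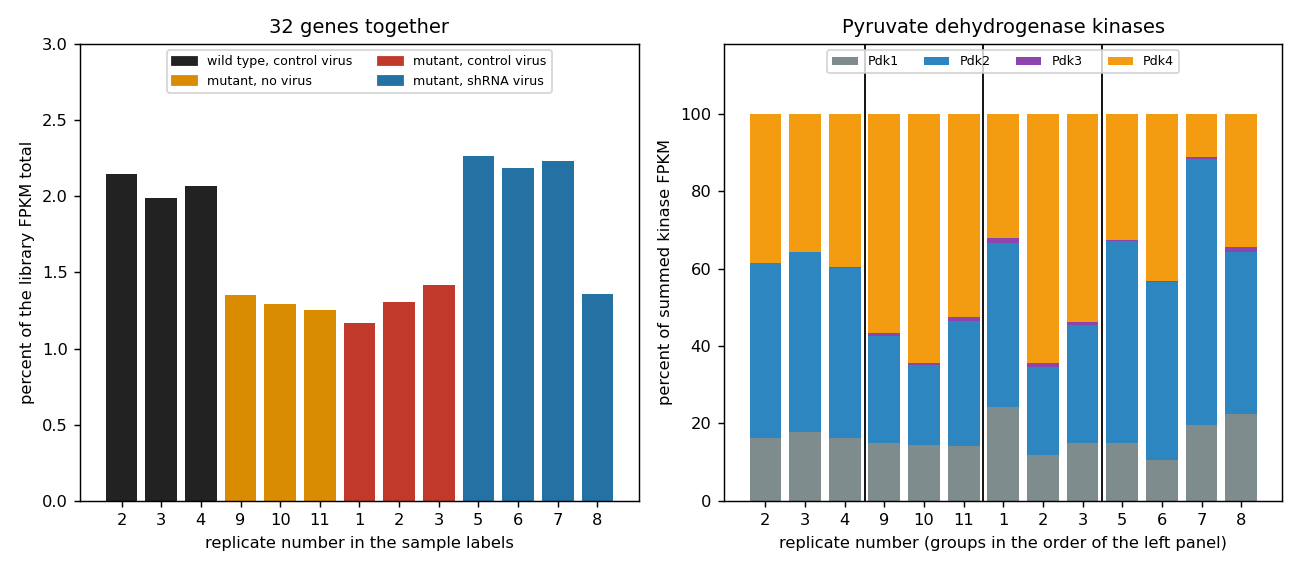
The left panel gives the 32 genes' share of each library's FPKM total in percent, 1 bar per library labelled by replicate number, and the right panel divides the summed FPKM of the 4 kinases by gene in the same libraries. The shares of the 32 genes are 1.99% or more in wild type and in labelled shRNA 5 to 7 and 1.42% or less in the other 7 libraries.

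In the first part of the cycle the largest change was in Idh2, which makes mitochondrial NADPH from isocitrate. It was at 2618, 2255 and 3258 FPKM in wild type, 802, 531 and 591 in mutants without virus and 689, 843 and 838 in control-virus mutants. The highest mutant value was 843 FPKM, and the control-virus difference was -1.77 ± 0.33 (3.40-fold, limma adjusted p = 0.00644). Citrate synthase (Cs), which joins acetyl-CoA to oxaloacetate, was at 980, 1132 and 1086 FPKM in wild type, 471, 343 and 336 in mutants without virus and 409, 585 and 434 in control-virus mutants, and fell by 1.18 ± 0.29 (adjusted p = 0.0199). Of the NAD-dependent isocitrate dehydrogenase, the catalytic subunit Idh3a fell by 0.94 ± 0.28 and Idh3b by 1.16 ± 0.30. The subunit Idh3g was at 848 to 1005 FPKM in wild type and 517 to 686 in control-virus mutants without passing (-0.61 ± 0.26, adjusted p = 0.141), and passed in mutants without virus (-0.98 ± 0.26, 0.0128). The cytosolic isocitrate dehydrogenase Idh1 fell from 112 to 122 FPKM in wild type to 32.9, 77.4 and 47.0 in control-virus mutants (-1.22 ± 0.33, adjusted p = 0.0282). The cytosolic aconitase Aco1, which is also an iron-regulated RNA-binding protein, was at 25.9 to 28.8 and 16.1 to 19.9 FPKM, and its difference passed after alignment (adjusted p = 0.0293) and not as deposited (0.0891).

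Of the 7 genes from 2-oxoglutarate to oxaloacetate described next, all but Mdh2 fell with control virus. Ogdh and Dlst, the first and second enzymes of the 2-oxoglutarate dehydrogenase complex, fell by 1.11 ± 0.26 and 1.05 ± 0.26 in control-virus mutants. Ogdh was at 994, 989 and 1071 FPKM in wild type and 405, 475 and 543 in these mutants, which do not overlap. For succinyl-CoA ligase, the shared subunit Suclg1 fell by 1.02 ± 0.28, the ATP-forming subunit Sucla2 by 1.27 ± 0.30 and the GTP-forming subunit Suclg2 by 1.14 ± 0.26. The ratio of Suclg2 to Sucla2 within a library was 0.137 to 0.162 in wild type, 0.144 to 0.170 in mutants without virus and 0.143 to 0.189 in control-virus mutants, ranges that overlap. Fumarase (Fh1) fell by 0.89 ± 0.27 (adjusted p = 0.0485). The mitochondrial malate dehydrogenase Mdh2 was at 2198, 2201 and 2342 FPKM in wild type and 1112, 1430 and 1248 in control-virus mutants, which do not overlap, and did not pass (-0.84 ± 0.27, adjusted p = 0.0608). In mutants without virus it was at 1181, 754 and 959 FPKM and fell by 1.24 ± 0.27 (adjusted p = 0.00499).

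Of the malate-aspartate shuttle enzymes, the transaminases fell in both comparisons. The cytosolic Got1 was at 686, 846 and 755 FPKM in wild type, 398, 226 and 227 in mutants without virus and 249, 498 and 298 in control-virus mutants (-1.19 ± 0.33, adjusted p = 0.0337). The mitochondrial Got2 was at 437, 497 and 485 FPKM, then 247, 144 and 165, then 164, 271 and 192 (-1.20 ± 0.33, adjusted p = 0.0308). Both were lower in every mutant, and their ratio within a library overlapped between groups (Got2 to Got1 0.588 to 0.642 in wild type and 0.544 to 0.725 in the 6 mutants). The cytosolic Mdh1 was at 2068 to 2504 FPKM in wild type and 1204 to 1720 in control-virus mutants without passing (-0.75 ± 0.28, adjusted p = 0.091), and fell in mutants without virus (-1.17 ± 0.28, 0.00743).

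The 3 malic enzymes, which turn malate into pyruvate, differed from each other. Me3, a mitochondrial NADP-dependent form, was at 58.9, 55.3 and 70.0 FPKM in wild type, 32.8, 20.7 and 22.8 in mutants without virus and 24.1, 30.0 and 29.4 in control-virus mutants, and fell by 1.11 ± 0.25 (adjusted p = 0.013). The cytosolic Me1 was at 96.7, 97.5 and 116 FPKM, then 109, 84.3 and 67.1, then 82.6, 114 and 82.5, which overlap (-0.16 ± 0.29). The mitochondrial NAD-dependent Me2 was at 10.7 to 17.8 FPKM in wild type and 13.4 to 20.2 in control-virus mutants (0.17 ± 0.30). Within a library the ratio of Me3 to Me1 was 0.567 to 0.609 in wild type, 0.246 to 0.340 in mutants without virus and 0.263 to 0.356 in control-virus mutants, a separation that no scaling of the libraries changes. Pyruvate carboxylase (Pcx), which refills oxaloacetate, was at 30.9, 40.0 and 34.7 FPKM in wild type and 21.4, 25.8 and 22.6 in control-virus mutants, and passed after alignment (-0.45 ± 0.12, adjusted p = 0.0261) and not as deposited (0.134).

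The count of 21 falls and 1 rise with control virus depended on single libraries. Without control-virus mutant 1 the members called were 2 (1.04% of all genes fell), without control-virus mutant 3 they were 5 (1.93%), and without wild type 2, 3 or 4 they were 5 (2.24%), 3 (1.93%) and 3 (2.14%), all of them falls. With sex as a covariate 2 fell (0.755%), and with the row Rn45s as a covariate 0 members were called (0.354% of all genes fell and 0.1% rose). Within the female libraries, wild type 4 was above all 4 mutants without shRNA for 29 of the 32 genes and 45.6% of all genes, the exceptions among the members being Pdk3, Pdk4 and Me2. Within the male libraries, wild type 2 and 3 were above both mutants without virus for 28 members and 43.5% of all genes. Idh2, for example, was at 3258 FPKM in the female wild type against 591 to 843 in the 4 female mutants, and at 2618 and 2255 in the males against 802 and 531. With the Rn45s row at 0, wild type 2 was above the 4 mutants for 28 members (32.6% of all genes), and among libraries with the row above 0 wild type was above the mutants for 28 (53%). The mutants without virus gave between 21 and 29 calls whichever library was left out.

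Control virus alone left no call among the 32 genes. Between mutants with control virus and without virus, 0 of the 32 and 0 of the 12980 genes passed in limma on either scale. At an unadjusted p under 0.05, 0 of the 32 and 572 of all genes passed as deposited, and 0 and 1223 after alignment. The median difference was 0.23 over the members and 0.23 over all genes as deposited, and 0.04 on both counts after alignment. The lowest difference was that of Pdk4 (-0.26 ± 0.53) and the highest that of Pdk3 (0.62 ± 0.43). Control-virus mutants were all female and 2 of the 3 mutants without virus were male, so virus and sex are partly mixed here.

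Libraries labelled shRNA had higher levels of most members than control-virus mutants. As deposited 28 of the 32 genes rose and 0 fell, while 33.4% of all tested genes rose and 1.66% fell, and the groups of 28 members did not overlap (30.7% of all genes). After alignment 26 rose and 1, Pdk3, fell, against 14.6% and 11.2% of all genes. Idh1 (0.61 ± 0.28) and Pdhb (0.64 ± 0.24) no longer passed. The groups then did not overlap for 10 of the 32 members (13.1% of all genes). The median difference was 1.25 over the members and 0.47 over all genes, and 0.80 and 0.02 after alignment. The 4 genes not called as deposited were Pdk3, Pdk4, Me1 and Me2, the same 4 that had stood apart from the rest in the mutants. Of the 12 cardiomyocyte markers 10 rose as deposited and 5 after alignment, and their sum was 106972 to 204004 FPKM in the labelled shRNA group. Of 8 endothelial markers 6 and 5 rose. Of 10 fibroblast markers 4 fell as deposited and 7 after alignment, of 11 macrophage markers 0 and 7, and of the 4 atrial markers 3 on both scales (Nppa, Sln and Myl4). The part of these markers in the result was not tested. The comparison shares the control-virus libraries with that against wild type, so the directions in both are not independent of each other.

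**Figure D4:**
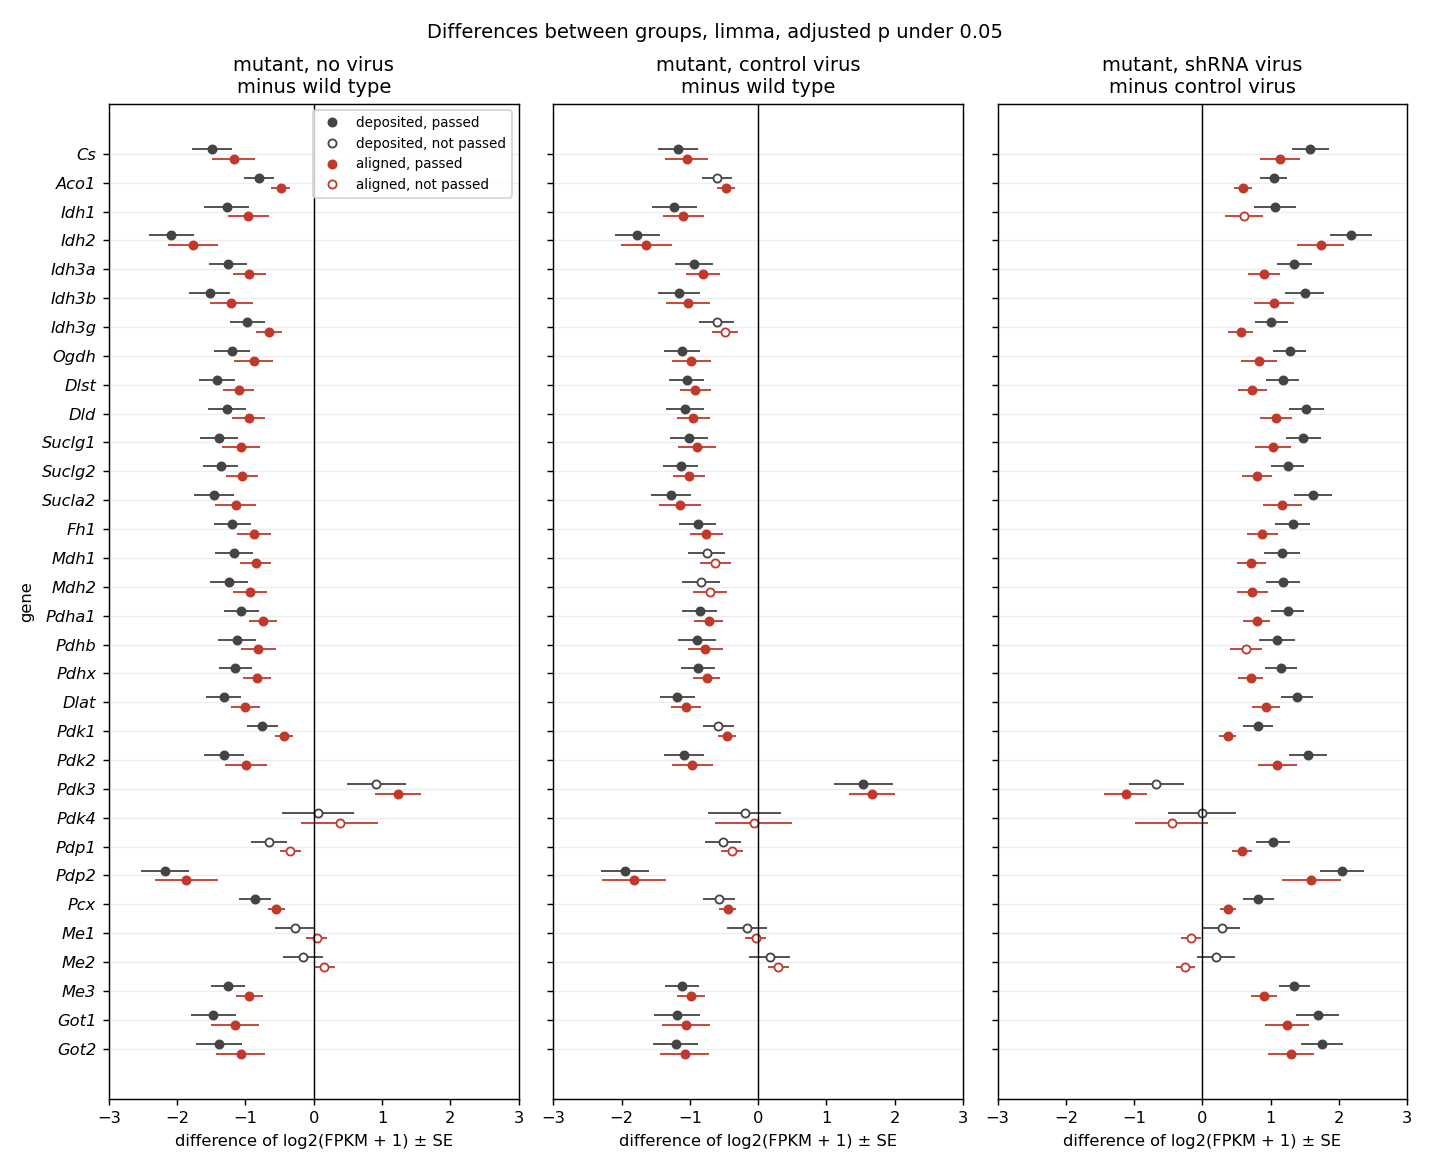
Points are differences of log2(FPKM + 1) for the 32 genes in 3 comparisons, with the SE as a bar, in gray as deposited and in red after alignment; filled points passed at a limma adjusted p under 0.05. In the 2 left panels most genes lie below 0 and Pdk3 above, and in the right panel most lie above 0, with smaller differences after alignment.

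The largest rise was in Idh2, at 3102, 5380, 4888 and 1997 FPKM in labelled shRNA 5, 6, 7 and 8 against 689 to 843 with control virus (2.18 ± 0.31, adjusted p = 0.000473, and 1.73 ± 0.35 after alignment, 0.0113). Pdp2 was at 28.3, 22.4, 33.6 and 8.59 FPKM against 4.07 to 4.57 (2.04 ± 0.33, adjusted p = 0.000676). As deposited both were highest in libraries 5 to 7, while library 8 lay between these and the control-virus mutants. After alignment library 8 still lay between for Idh2 (1224 FPKM against 775 to 1029 with control virus). Its aligned Pdp2 of 4.88 FPKM lay within the control-virus range of 4.20 to 5.50. Cs was at 1345, 2011, 1696 and 861 FPKM (1.58 ± 0.27), Got1 at 1003, 1354, 1506 and 655 (1.69 ± 0.31) and Got2 at 633, 1129, 814 and 386 (1.75 ± 0.31). The subunits of pyruvate dehydrogenase rose by 1.09 (Pdhb) to 1.52 (Dld), and those of succinyl-CoA ligase by 1.25 (Suclg2) to 1.62 (Sucla2). Pdk2 was at 475, 803, 689 and 351 FPKM and rose by 1.55 ± 0.27. Pdk3 was at 1.53, 3.39, 2.96 and 11.3 FPKM against 5.01 to 10.0. As deposited libraries 5 to 7 lay below the control-virus mutants and library 8 above. After alignment library 8 lay within their range (6.56 FPKM against 5.75 to 9.27). The fall of Pdk3 passed in limma only after alignment (-1.13 ± 0.32, adjusted p = 0.0259). Pdk4 ranged from 113 to 755 FPKM in the labelled shRNA group and overlapped every other group. Its share of kinase RNA was 32.6%, 43.2%, 11.3% and 34.5%.

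Library 8 stood apart from 5 to 7. Its 32 genes made up 1.36% of the FPKM total, against 2.27%, 2.19% and 2.23% in libraries 5 to 7. After alignment it was below all 3 others for 27 members and above all 3 for 4. The share of all tested genes that did the same was not taken, so these counts do not show a trait particular to the 32 genes. After alignment 27 members and 22% of all tested genes were lower in all 6 mutants than in wild type. For these 27 members, libraries 5, 6 and 7 were at or above the lowest wild-type value for 24, 24 and 25. None of the 3 was at or below the highest mutant for any of them. These bounds are those that picked the 27, and the genes outside the list that met the rule were not scored. Library 8 was at or above the lowest wild type for 0 of the 27, at or below the highest mutant for 20, and between for 7. Its aligned Pdp2 differed from the mean of libraries 5 to 7 by -2.09 on the log2 scale, its Idh2 by -1.62 and its Cs by -1.45. It was the single female of the group. As deposited, its sums of fibroblast markers (5105 FPKM against 1081 to 2008) and macrophage markers (3477 against 444 to 904) were above those of libraries 5 to 7. So were its endothelial sum (915 against 533 to 820) and its smooth muscle and pericyte sum (5713 against 1539 to 2750). Its cardiomyocyte sum was below (106972 against 119354 to 204004), as were its red cell and liver sums. The adipocyte and mesothelial sums lay within the range of libraries 5 to 7. All these sums are as deposited, and library 8 had the largest scale shift (0.71). After alignment the endothelial sums of the labelled shRNA group ran only from 536 to 603 FPKM. Its aligned fibroblast sums ran from 1165 to 3126, macrophage sums from 479 to 2128 and smooth muscle and pericyte sums from 1658 to 3501. The cardiomyocyte sums ran from 65580 to 150700 and the adipocyte sums from 1726 to 2639. Of the atrial markers, Nppa (42676 FPKM against 1033 to 2315) and Myl4 (12.9 against 0.964 to 4.37) were above libraries 5 to 7. Myl7 (2.16 against 1.18 to 2.66) and Sln (0.894 against 0 to 0.930) lay within their range. The human MYL2 row was listed at 0 in library 8 and at 229 to 420 FPKM in libraries 5 to 7. Without library 8 the aligned comparison with control virus then sets male against female libraries, and 30 members were called in it (28 rose, and Pdk3 and Me2 fell), against 25.4% of all genes that rose and 23% that fell. Among the female libraries, library 8 was above all 4 mutants without shRNA for 31 members as deposited and for 10 after alignment, and 93.1% and 28.2% of all genes did the same. Among the males, libraries 5 to 7 were above mutants 9 and 10 for 28 members on both scales, against 44.5% of all genes as deposited and 33% after alignment. With sex as a covariate on aligned values 0 members were called against control virus (0.139% of all genes rose and 0.262% fell), and without library 8 as well 25 rose and Pdk3 fell (15.9% and 13.6%). In the fit without library 8 the sex term rested on the wild-type libraries and the mutants without virus alone. Within the compared groups it could not separate sex from treatment. Which of sex, scale, cell make-up and treatment goes with the difference between library 8 and the others cannot be told apart.

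Against wild type, 0 of the 32 genes passed in the labelled shRNA group on either scale, with 0.108% of all genes higher and 0% lower as deposited, and 0.0539% higher and 0.0539% lower after alignment. At an unadjusted p under 0.05, 3 of the 32 passed as deposited and 0 after alignment, against 2026 and 1493 of all genes. The median difference was 0.36 over the members and 0.34 over all genes, and 0.04 and 0.02 after alignment. Aligned differences ran from -0.52 ± 0.53 (Pdk4) to 0.54 ± 0.32 (Pdk3). For Idh2 the aligned difference was 0.10 ± 0.35 and for Pdp2 -0.23 ± 0.43, SEs that are larger than these differences, and the missing calls do not show equal levels. Without library 8, 4 members rose above wild type after alignment (Cs, Suclg1, Pdk2 and Got2) and 0 fell, against 3.21% and 2.44% of all genes. Against mutants without virus, which include 2 males, 28 rose and 0 fell as deposited (53.6% and 1.21% of all genes), and 26 rose and 0 fell after alignment (19.3% and 11.3%). The smallest and largest called aligned rises were those of Pdk1 (0.35 ± 0.12) and Idh2 (1.86 ± 0.35).

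Other genes of the same metabolism are given by role. Of 12 other TCA cycle genes 4 fell and 0 rose with control virus against wild type (6 and 0 after alignment), among them the succinate dehydrogenase subunits Sdha (-1.24 ± 0.28) and Sdhb (-1.02 ± 0.28) and Dhtkd1, an Ogdh relative of lysine breakdown (-1.16 ± 0.27). In mutants without virus 11 of the 12 fell as deposited and 10 after alignment. In the labelled shRNA group against control virus 11 rose as deposited and 7 after alignment, where 33.4% and 14.6% of all genes rose.

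Of 12 tested genes of pyruvate supply 6 fell and 1 rose with control virus. The alanine transaminase Gpt, which makes pyruvate from alanine, was at 61.3, 65.6 and 65.3 FPKM in wild type, 7.61, 5.27 and 4.30 in mutants without virus, 5.83, 7.18 and 7.04 in control-virus mutants and 101, 151, 103 and 13.7 in labelled shRNA 5 to 8 (-3.09 ± 0.56 with control virus, adjusted p = 0.00586). The gene that rose, the lactate exporter Slc16a3, was at 1.33, 1.37 and 1.92 FPKM, then 8.49, 8.57 and 14.6, then 18.5, 31.7 and 15.4, then 1.11, 1.96, 2.55 and 22.4. Both put library 8 nearer to the mutants than to libraries 5 to 7. Ldhd, the mitochondrial D-lactate dehydrogenase, fell by 1.57 ± 0.25 and Gpt2 by 1.49 ± 0.26.

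Of 9 shuttle and dicarboxylate carriers or enzymes 4 fell and 0 rose as deposited, and 5 fell and 1, the citrate carrier Slc25a1, rose after alignment. The 2-oxoglutarate-malate carrier Slc25a11 was at 702, 725 and 742 FPKM in wild type and 251, 348 and 277 in control-virus mutants (-1.32 ± 0.31), and the aspartate-glutamate carrier Slc25a12 fell by 1.09 ± 0.27. With Got1 and Got2, both of these inner-membrane partners of the malate-aspartate shuttle were thus lower. Of 6 lipoylation and deacylase genes 2 fell, Sirt5 (-1.33 ± 0.28) and Sirt3 (-1.01 ± 0.26), which remove acyl groups from mitochondrial enzymes. Of 12 tested genes that feed or drain the cycle's acids 9 fell and 0 rose as deposited, and 9 fell and 1 (Pck2) rose after alignment, among them Aldh5a1 (-1.30 ± 0.26), which makes succinate, and the methylmalonyl-CoA mutase Mut (-1.26 ± 0.26). Of 15 regulators 5 fell and 1 rose as deposited, and 4 fell and 2 rose after alignment. The fatty acid receptor Ppara was at 48.6, 56.4 and 47.8 FPKM in wild type and 14.3, 19.7 and 19.5 in control-virus mutants (-1.47 ± 0.30), and Myc, which drives growth, was at 2.08, 2.90 and 3.26 and at 9.44, 21.2 and 11.1 (1.93 ± 0.59, adjusted p = 0.0488). In the labelled shRNA group against control virus 8 pyruvate supply genes rose as deposited and 5 after alignment. For the shuttle list these counts were 8 and 6, for lipoylation and deacylases 5 and 2, for the genes that feed or drain the cycle's acids 10 and 9, and for regulators 9 and 5, with 33.4% and 14.6% of all genes rising.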

How the data were processed

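PolyA RNA of 13 hearts was analysed (13 libraries from 13 animals), and the 11 small RNA libraries were not used here. The authors deposited these as 1 table of FPKM values (fragments scaled by the length of the transcript and by the mapped fragments), a column for each library. Per the submitters' processing notes the build was mm9 and the tools were Cuffdiff, Cufflinks 2.2.1, STAR 2.40 and FastQC 0.11.2. What each tool did, the annotation, read numbers and the scaling of libraries are items not given in the sources used here. Depth per sample is therefore unknown, and counting errors cannot be stated.

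Sample names gave the groups. On the log2(FPKM + 1) scale, limma 3.58.1 (R 4.3.3, lmFit, eBayes with a trend, two-sided) fitted 1 model to all 4 groups, for the 12980 of 23998 genes whose mean reached 1 FPKM. In each of 6 comparisons p-values were adjusted over all tested genes by the Benjamini-Hochberg method, with 0.05 as the limit. Fold changes are on the FPKM + 1 scale, which understates the change of low genes. Aligned values had each library's median difference removed, taken over the 13875 genes above 0 in every library. The procedure was tested on simulated data. Alternatives were other scalings, filters and pseudocounts, a fit on the compared groups, robust eBayes, sex or the row Rn45s as a covariate, the replicate number as a block and leaving out each library.

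The 32 members and all gene lists were chosen with earlier results of these data known. All 32 members are named. Of each other list up to 3 genes each way with the smallest p in control-virus mutants against wild type are named, and Slc25a1 and Pck2 were named after their values were seen. The replicates are separate animals per the labels. Promoter sequences come from RefSeq (GRCm38.p6), which is another build than mm9, so no gene coordinates are set beside the expression values. Summaries were made with Python 3.11.15 and pandas 2.3.3.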

Additional observations from a re-analysis of the deposited data

Results flagged for a closer look

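Within the 4 libraries labelled shRNA, a member's value was marked where the highest or lowest library was farther from its nearest neighbour than Dixon's 95% limit for 4 values allows, which chance does in about 1 of 20 groups. The 32 members were checked on both scales and 14 values were marked. As deposited, Pdk1 was lowest in replicate 5, at 7.09 on the log2(FPKM + 1) scale against 7.55 to 7.63 in the others.

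After alignment the marked library was replicate 8 for the other 13 genes, each time as the lowest. For the pyruvate dehydrogenase complex the aligned log2 level in replicate 8, against the range of replicates 5 to 7, was Pdha1 9.80 against 10.58 to 10.69, Pdhb 8.98 against 9.85 to 10.01, Pdhx 6.83 against 7.63 to 7.74, Dlat 7.57 against 8.44 to 8.49 and Dld 8.64 against 9.59 to 9.71. For the cycle enzymes it was Cs 9.04 against 10.46 to 10.54, Idh2 10.26 against 11.71 to 11.98, Idh3a 8.67 against 9.63 to 9.74 and Dlst 8.60 against 9.45 to 9.60. For succinyl-CoA ligase it was Suclg1 8.30 against 9.43 to 9.65 and Sucla2 8.75 against 9.96 to 10.20. For the kinase and the mitochondrial transaminase it was Pdk2 7.75 against 9.00 to 9.21 and Got2 7.89 against 9.40 to 9.71. The genes share the library, so these are not 13 separate signs, and replicate 8 also differed from the other 3 in sex, in the rows Rn45s and human MYL2 (0 against 229 to 420 FPKM) and in the marker values given above.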

How the results depend on the processing

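As deposited, 22 members were called between control-virus mutants and wild type, while 7.35% of all genes fell and 2.15% rose. The count of members was 11 with no filter on low values and 2 with sex as a covariate (0.755% of all genes fell). It was 12 with sex as a covariate and without labelled shRNA replicate 8, and between 2 and 24 when each library was left out. Added after seeing the data, it was 1 with alignment and sex, 0 with Rn45s and 0 with alignment and Rn45s. With the replicate number as a block it was 3, and 26 with the block on aligned values. Same-numbered libraries did not deviate together (r = -0.20 and -0.11 across genes for the 2 shared numbers). Libraries of unlike number gave r of -0.10 to 0.17, and 2 values cannot exclude a pairing. For labelled shRNA against control virus, with 28 calls as deposited, the count was 0 with alignment and sex and 0 with alignment and Rn45s, and 25 to 29 when each library was left out. For labelled shRNA against wild type, with 0 calls as deposited, it was 4 with alignment and without replicate 8 and 2 with sex in addition. Leaving out each library gave 21 to 29 calls for mutants without virus against wild type (27 as deposited), 27 to 29 for labelled shRNA against mutants without virus (28), 0 to 0 for labelled shRNA against wild type and 0 to 0 for control virus against none. In the alternatives run, the counts for mutants without virus against wild type and for labelled shRNA against mutants without virus stayed within 1.5 times. That for control virus against none stayed at 0. Where no share of all genes stands here or above, these counts are not set against all genes. The cause of these changes was not tested.

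The signs of single genes turned in 3 called cases. Pdk4 was higher in control-virus mutants than in wild type with the block on aligned values (0.51, adjusted p = 0.0408, limma). Me2 was lower in labelled shRNA than in control-virus mutants on aligned values without replicate 8 (-0.35, adjusted p = 0.0399). Me1 was lower in labelled shRNA than in mutants without virus after quantile normalization (-0.46, adjusted p = 0.0347). A sign other than that as deposited was seen in 229 of 5434 member values over the alternatives, in 31 genes. Apart from these 3 cases, they passed on neither side. With the depth unknown, the precision rests on the 3 or 4 animals of a group.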
